A study of Homo sapiens with 16 samples.

Results

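Malign_0 is 1 of 2 tumor cell clusters, in the deposited annotation, that were found in the short-term pools of LPA1-T127 (T127), a PARP inhibitor resistant mouse mammary tumor, and in none of the pools of its sensitive counterpart. Its members were every cell with that cluster name in the cell tables of 16 capture pools, and the level of each gene came from the matching UMI counts. A barcode that occurred in more than 1 long-term pool was kept only as its deepest copy, which left 5324 Malign_0 cells of 48824 cells in all. The long-term pools held 2809 of them and the short-term T127 pools 2515. The short-term pools of the sensitive tumor, LPA1-T22 (T22), held 0 of 15094 cells with this name.

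T127 and T22 arose in the mammary epithelium of mice with an LPA1 receptor transgene, and chunks of 25 mm3 were transplanted into the mammary fat pad of female FVB mice 6 weeks old. The 8 long-term pools mixed T22 and T127 tumors, from mice that carried a single strain on both sides or T22 and T127 on opposite sides, treated with vehicle or olaparib (a PARP inhibitor, 50 mg/kg daily) for 20 days. The 4 short-term T127 pools and 4 short-term T22 pools held tumors given vehicle or olaparib for 4 or 8 days. All tumors were dissociated, tagged with hashtags, pooled and depleted of dead cells before droplet capture. None of the files used here ties a cell to its tumor, so vehicle and olaparib could not be compared. The labels do not say how the pools of an experiment differ.

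Mammary tumor cells can keep an epithelial program, with keratin filaments and junction proteins such as E-cadherin and claudins, or take up a mesenchymal one, driven by transcription factors such as Zeb1, Snai1 and Twist1. Tumors with a weak epithelial program and few claudins are known as claudin-low tumors. Cells can also differ in passing states laid over that lineage program, among them the immediate early response, a burst of Fos, Jun and Egr1 transcription that follows growth factors, stress or tissue dissociation, and the interferon response.

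Levels are counts of UMIs (unique molecular identifiers, 1 per captured mRNA) summed over the cells of a cluster and scaled to a total of 1000000 UMIs for those cells (counts per 1000000, CPM). A gene was called higher or lower where it reached at least 10 CPM in 1 of the 2 groups, differed by at least 2-fold and had pool values that did not overlap between the groups. A gene below 10 CPM in 1 group passed the minimum through the other, so its direction was set by that filter, and for the main lists the number of such genes is given as filter-set. Log2 ratios carry a pseudocount of 1 CPM, folds carry none, and intervals cover counting error only. Clusters were made from these same genes and cells are not replicates, so the contrasts are descriptions and no p-value is given. Each pool mixed tumors and is not an animal, so pool values that stand apart do not measure the spread between animals.

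A Malign_0 cell held a median of 19775 UMIs and 4195 genes in the long-term pools (pool medians 17486 to 22388 UMIs) and 36205 UMIs and 6094 genes in the short-term pools (32657 to 38687 UMIs). The cluster's totals were 60692267 and 94086467 UMIs, so 3 UMIs corresponded to 0.0494 and 0.0319 CPM. No Malign_0 cell had fewer than 2501 genes in the long-term or 3002 in the short-term pools, whereas other clusters reached down to 402 and 428 genes, so the tumor clusters had a higher floor than the rest. In the long-term pools 67 shallower copies of shared barcodes carried the name Malign_0, of which 53 lay in pool 1 and 14 in pool 2. The deepest copy was also Malign_0 for 54 of the 67 and Malign_1 for 13. In the short-term T127 pools 3 barcodes occurred more than once.

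The 4 markers given for Malign_0 are decorin (Dcn), a small proteoglycan of connective tissue, the simple epithelial keratins Krt8 and Krt18, and the tight junction protein claudin 1 (Cldn1). With every cell thinned to 5000 UMIs, Dcn was detected in 96.0% (95% interval 95.2 to 96.7) of long-term Malign_0 cells, Krt8 in 82.6%, Krt18 in 67.4% and Cldn1 in 7.23%. At full depth these shares were 99.3%, 97.1%, 87.5% and 25.5%. In Macro-M2 macrophages of the same pools, which should lack these genes and had a median of 11168 UMIs, the thinned shares were 11%, 4.96%, 6.06% and 0.522%. All 4 markers were thus found in Malign_0 above the shares in Macro-M2 cells, with Cldn1 in a minority of the cells. They were shared with Malign_1, where the thinned shares were 94.0%, 73.0%, 61.6% and 5.13%. Malign_3 had more Krt8, Krt18 and Cldn1 than Malign_0 in the long-term pools, at 1999.8, 3022 and 28.6 CPM. Cldn1 did not single out the cluster, since CD14-IL1B myeloid cells had more of it, at 61.6 CPM beside 17.3 CPM in Malign_0 in the long-term and 112 beside 25.3 CPM in the short-term pools, and CD14-PF4 myeloid cells had 647 CPM of Krt18 beside 597 CPM in long-term Malign_0. The short-term shares in Malign_0 were 95.7%, 95.9%, 78.1% and 9.74%.

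Apart from decorin, the genes of fibroblasts were far lower in Malign_0 than in fibroblasts. Against inflammatory cancer-associated fibroblasts (i_CAF, 726 long-term cells), 19 of the 20 fibroblast genes listed were lower in Malign_0, of which 15 were filter-set. Over all 8403 genes tested in this contrast 13.9% (1168 genes, or 760 with a pseudocount of 10 CPM) were higher and 17.2% lower in Malign_0. Col3a1, a fibrillar collagen, was at 8.22 CPM in Malign_0 (pools 4.08 to 12.8) and 12802 CPM in i_CAF (pools 10346 to 14668). Col1a1, the main collagen of connective tissue, was at 3.92 and 5517 CPM, and lumican (Lum), a matrix proteoglycan, at 0.939 and 1059 CPM. Decorin was the exception, at 4305 CPM in Malign_0 (pools 3786 to 4799) and 6544 CPM in i_CAF (pools 5243 to 7519). Krt8 went the other way, at 735 CPM in Malign_0 and 16.8 CPM in i_CAF, with pool ranges of 625 to 836 and 3.26 to 51.2. Of the basement membrane and matrix genes 16 of 18 were lower in Malign_0, 7 of them filter-set, and 2 higher.

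The most abundant transcripts of long-term Malign_0 cells were the nuclear RNA Malat1 (38922 CPM), the iron store ferritin heavy chain (Fth1, 32043 CPM), the calcium binding protein S100a6 (12680.1 CPM), the mesenchymal filament vimentin (Vim, 9947 CPM) and osteopontin (Spp1, 9301 CPM), a secreted ligand of integrins and CD44. Twist1 was at its highest level of all 22 long-term clusters in Malign_0, at 299 CPM, next to 283 CPM in Malign_1. The pool ranges (256 to 349 and 235 to 306) overlapped, although Twist1 was higher in Malign_0 inside each of the 8 pools. Hmga2, an architectural chromatin protein of embryonic tissue and many tumors, was the second highest of the 22 at 1105 CPM. The highest was Malign_1, at 1121 CPM, again with overlapping pools (912 to 1289 and 1004 to 1326).

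Malign_0 made up 61.0% (95% interval 59.6 to 62.4) of the T127 tumor cells (Malign_0 plus Malign_1) in the long-term pools and 51.6% (95% interval 50.1 to 53.0) in the short-term pools, where among cells of 10000 to 40000 UMIs it was 47.7%. The long-term pools fell apart into 2 levels. In pools 1 to 4 the share was 52.6%, 49.8%, 52.1% and 48.6%, and in pools 5 to 8 it was 72.7%, 73.0%, 73.5% and 76.1%. The intervals of the first 4 pools, the highest reaching 56.5%, did not touch those of the last 4, the lowest starting at 68.9%. The 4 short-term pools gave 51.4%, 52.7%, 50.6% and 51.7%, with intervals that overlapped one another. Of all cells in a pool Malign_0 was 9.87% to 12.3% in the long-term and 30.7% to 31.9% in the short-term T127 pools, the long-term pools also holding T22 tumors.

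**Figure D1:**
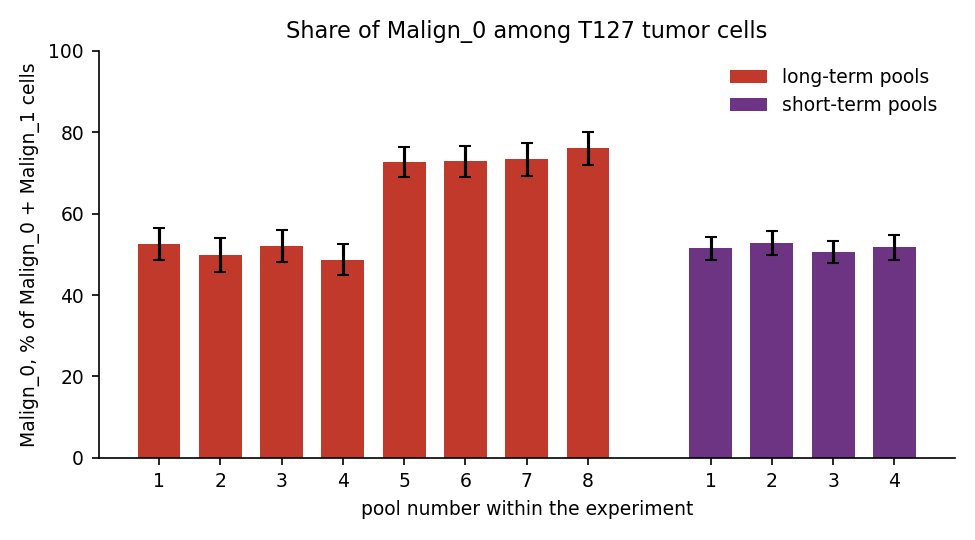
Share of Malign_0 among T127 tumor cells (Malign_0 plus Malign_1, in percent) in each of the 8 long-term pools and 4 short-term T127 pools, with exact 95% Clopper-Pearson intervals that cover counting error only. Long-term pools 5 to 8 stand at 72.7% to 76.1% and the other 8 pools at 48.6% to 52.7%.

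The question of what sets the T127 clusters apart was taken up by setting Malign_0 beside Malign_1. Few genes differed, and among the lists the immediate early genes had the highest share called, and those called were lower in Malign_0. In the long-term pools only 2.05% of the 7235 genes tested were 2-fold or more apart between them, against 38.1% of 8275 for Malign_2, 38.9% of 8347 for Malign_3 and 32.6% of 8403 for i_CAF. With the pools also required to stand apart, 90 genes (1.24%) were lower and 24 (0.332%) higher in Malign_0 than in Malign_1. In the short-term pools 136 genes (1.68% of 8093) were lower and 5 (0.0618%) higher, a number that was 0 with a pseudocount of 10 CPM, 10 with a minimum of 1 CPM and 14 among cells of 10000 to 40000 UMIs. Both clusters lie in the same pools, and with Malign_0 compared with Malign_1 inside each pool 34 genes of 2-fold or more were higher in every long-term pool and 98 lower.

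Of the immediate early and heat shock genes 13 of 15 tested were lower in long-term Malign_0 cells and 14 of 16 in short-term ones, with median log2 ratios of -3.24 and -3.10 beside 0.07 and 0.09 over all genes tested. Of the genes tested 1 and 2 were filter-set. Fos, a subunit of the AP-1 transcription factor, was at 146 in the lowest pool, 278 at the median and 476 in the highest of the long-term pools in Malign_0. In Malign_1 it was at 4427 in the lowest pool, 6243 at the median and 7721 in the highest, all in CPM. No pool of Malign_0 came near the Malign_1 pools, and the summed level was 23.7-fold lower (95% interval 23.4 to 24.1). The short-term pools had 138, 198, 161 and 182 CPM of Fos in Malign_0 and 3093, 2910.3, 2971 and 3335 CPM in Malign_1, again without overlap.

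Atf3, a stress-induced transcription factor, showed the lowest ratio of the genes of at least 20 CPM in this contrast. It was at 6.11 in the lowest pool, 10.2 at the median and 20.0 in the highest in Malign_0 and at 196 in the lowest pool, 329 at the median and 444 in the highest in Malign_1, 31.0-fold lower (95% interval 28.7 to 33.6) in Malign_0, and in the short-term pools at 5.12 and 172 CPM. Egr1, a growth factor-induced zinc finger protein, was at 107 CPM (pools 80.0 to 149) against 1567 CPM (pools 1378 to 1685). Junb, another AP-1 subunit, kept a higher level in Malign_0, at 741 CPM (pools 671 to 902), and was 9.35-fold lower (95% interval 9.25 to 9.44) than in Malign_1. The feedback genes of this response followed the same order. Dusp1, a phosphatase that turns off MAP kinases, had a log2 ratio of -3.24 in the long-term and -3.06 in the short-term pools. For Zfp36, which speeds the decay of cytokine mRNAs, the ratios were -3.56 and -3.22, and for the antiproliferative gene Btg2 -3.69 and -3.33. The heat shock genes Hspa1a and Hspa1b were not called in either experiment, with log2 ratios of -0.81 and -0.62 in the long-term pools.

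Summed over the list, immediate early transcripts reached 3602 CPM in long-term Malign_0, where the pools spanned 3061 to 4247, and 30896 CPM in Malign_1, where they spanned 24229 to 34461. In the short-term pools the sum was 3610 CPM for Malign_0, spanning 3141 to 3885, and 23441 CPM for Malign_1, spanning 22316 to 24433. Malign_0 had the lowest sum of the 22 long-term clusters and of the 20 short-term clusters, and Malign_1 the highest of both. The clusters next above Malign_0 were CD8_Tn-CCR7 T cells, at 3800.1 CPM in the long-term and 4018 CPM in the short-term pools. Cell by cell the distributions overlapped. After thinning to 5000 UMIs, a long-term Malign_0 cell had a median of 13 UMIs of the list and a Malign_1 cell 144, and 38.6% of Malign_0 cells reached the 5th percentile of Malign_1 (16 UMIs). In the short-term pools the medians were 12 and 116 UMIs and 19.7% of Malign_0 cells reached that percentile (28 UMIs). A low level per cell was not particular to Malign_0. Long-term Malign_2 cells had a median of 14 UMIs, a 25th percentile of 5 against 9 in Malign_0, and a 75th percentile of 47 against 21. Dissociation of the tissue is a known trigger of these genes, and its part in the difference between Malign_0 and Malign_1 was not tested.

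**Figure D2:**
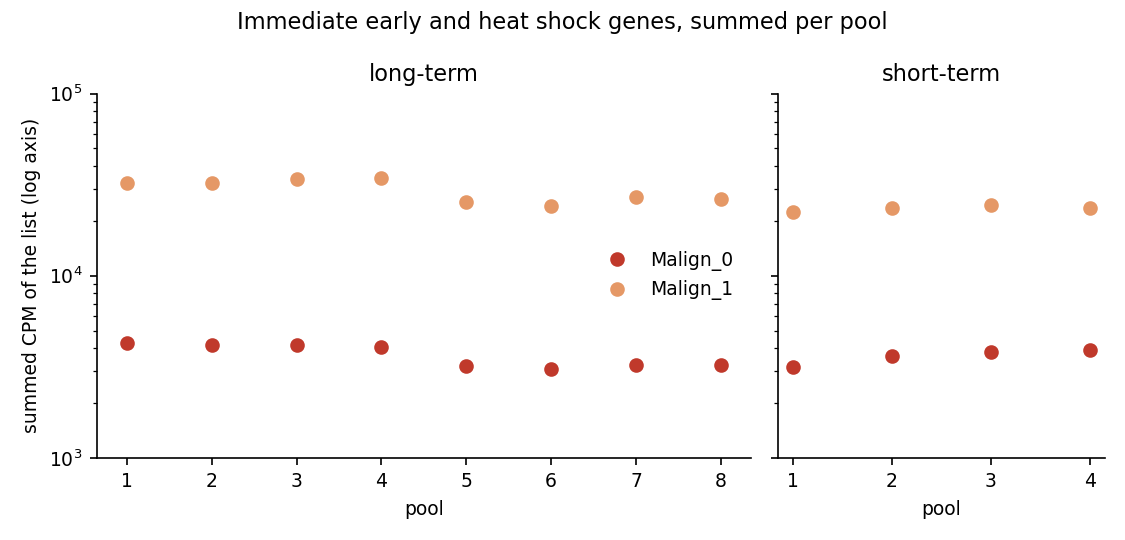
Summed level of the immediate early and heat shock genes (CPM, log axis) in Malign_0 and Malign_1 in each long-term pool (left) and short-term T127 pool (right), 1 point per pool. Malign_0 lies at 3061 to 4247 CPM in the long-term and 3141 to 3885 CPM in the short-term pools, below every Malign_1 pool.

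A minority of the chemokine, growth factor, stress and glycolysis genes listed were also lower in Malign_0 than in Malign_1. Cxcl1, a chemokine that draws neutrophils, was at 43.9 CPM in Malign_0 (pools 14.7 to 71.9) and 1026 CPM in Malign_1 (pools 789.6 to 1274) of the long-term pools. The short-term levels were 42.2, 49.1, 56.5 and 80.7 CPM against 973, 1152, 959 and 935 CPM. Cxcl2, its close relative, had log2 ratios of -3.71 and -3.97. These were the 2 called of 16 chemokine and cytokine genes tested in the long-term pools, and the short-term pools added Ccl2 and Ccl7, attractants of monocytes. In the long-term pools Ccl2 was at 27.8 CPM (pools 9.38 to 59.6) in Malign_0 and 154 CPM (pools 24.7 to 265) in Malign_1, so the pools overlapped, although Ccl2 was lower in Malign_0 inside each of the 8 pools.

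Over all genes tested 1.24% were lower in Malign_0 than in Malign_1 in the long-term and 1.68% in the short-term pools. Of 11 growth factor genes tested 4 were lower and 0 higher in long-term Malign_0. They were the EGF receptor ligands Areg, Ereg and Hbegf and the matricellular protein gene Ccn1. Areg was at 84.7 in the lowest pool, 112 at the median and 146 in the highest in Malign_0 and at 205 in the lowest pool, 256 at the median and 406 in the highest in Malign_1. Ereg had log2 ratios of -1.80 and -1.26 in the long- and short-term pools, and Hbegf of -1.60 and -1.35. Among unfolded protein and integrated stress genes 3 of 10 were lower. Ddit3, which encodes the stress factor CHOP, was at 67.3 CPM (pools 59.8 to 76.7) against 164 CPM (pools 118 to 247), and its activator Atf4 at 158 against 362 CPM. Among 23 glycolysis and hypoxia genes 5 were lower in the long-term and 7 of 22 in the short-term pools. Hk2, a hexokinase that traps glucose in the cell, was at 31.4 and 134 CPM, and the glucose transporter Slc2a1 at 84.7 and 176 CPM. Hes1, a target of Notch, was 3.86-fold lower (95% interval 3.63 to 4.11) in long-term and 6.41-fold lower (95% interval 6.06 to 6.79) in short-term Malign_0.

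Genes higher in Malign_0 than in Malign_1 were few, and included genes of S phase and mitosis. Pclaf, which binds the replication clamp PCNA, was at 19.4 in the lowest pool, 27.6 at the median and 39.4 in the highest in long-term Malign_0 and at 0.865 in the lowest pool, 5.33 at the median and 9.71 in the highest in Malign_1. The groups did not overlap there, but Malign_1 lay below 10 CPM in each long-term pool, so the direction of Pclaf was filter-set. In the short-term pools the groups overlapped, at 30.2, 21.2, 20.6 and 18.6 CPM against 27.9, 13.5, 21.6 and 18.1 CPM. Tk1 and Rrm2, which supply nucleotides for DNA synthesis, had long-term log2 ratios of 1.86 and 1.79 and short-term ones of 0.45 and 0.39. Birc5 (survivin), which acts in mitosis, had 1.43 in the long-term and 0.37 in the short-term pools. The S phase list summed to 559 CPM over long-term Malign_0, its pools spanning 503 to 633, and to 353 CPM over Malign_1, spanning 323 to 389. G2/M genes were at 1755 and 1354 CPM with pools that overlapped, higher in Malign_0 inside 7 of the 8 pools. Of these lists 1 of 19 S phase and 3 of 32 G2/M genes were called higher, beside 24 of all 7235 genes tested (0.332%). Counts of 1 and 3 genes are too small to be read as an excess.

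Per cell, the S phase and G2/M lists together gave a median of 5 UMIs in long-term Malign_0 and 6 in Malign_1 after thinning to 5000 UMIs, while the 95th percentile was 45.6 UMIs in Malign_0 and 18.4 UMIs in Malign_1. The short-term medians were 7 and 6 UMIs and the 95th percentiles 76 and 62 UMIs. The upper tail, and not the typical cell, thus held the long-term difference.

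Among the other genes called higher, the hair follicle keratin Krt27 was at 110.2, 80.5, 92.2, 119, 117, 132, 95.3 and 91.4 CPM in the 8 long-term pools of Malign_0 and at 18.2 to 60.5 CPM in Malign_1. Its short-term levels were 150.5 and 88.7 CPM, a log2 ratio of 0.76 that was not called. Dkk2, a secreted modulator of Wnt signalling, was 2.22-fold higher (95% interval 2.13 to 2.31) in long-term Malign_0, at 170.5 CPM (pools 152 to 193), and 1.68-fold higher (95% interval 1.65 to 1.70) in short-term Malign_0, which did not reach the call. The number of genes called higher in the long-term pools depended on the settings, being 40 instead of 24 without long-term pool 6, 38 with a minimum of 1 CPM and 8 with a pseudocount of 10 CPM.

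Most of the lower genes of the long-term contrast were called again in the short-term contrast, and few of the higher ones were. Of all genes tested in the short-term pools 1.68% were called lower and only 0.0618% higher, which limits the overlap of higher genes. Of the 90 genes lower in long-term Malign_0, 81 were also lower in the short-term pools, which is 90.0% of the long-term and 59.6% of the 136 short-term genes. Of the 24 higher genes 1 was also higher in the short-term pools, which is 4.17% of the 24 and 20.0% of the 5. The log2 ratio of all 24 was above 0 there, with a median of 0.53 against 1.19 in the long-term pools. The experiments used separate mice and pools, but the cluster names of both come from the deposited annotation, which was made from these same genes. That these genes recur is thus partly set by the naming, and the overlap is a description only.

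**Figure D3:**
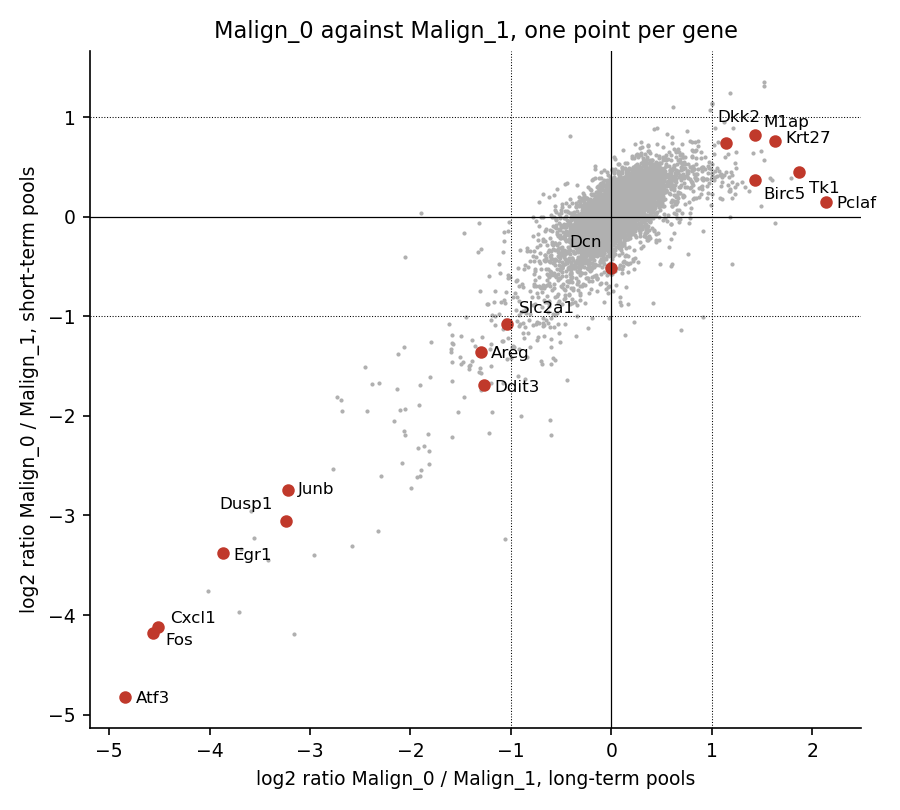
Log2 ratio of Malign_0 to Malign_1 in the long-term pools (x axis) and in the short-term T127 pools (y axis), 1 point per gene for the 10014 genes tested in at least 1 of 6 contrasts, with dotted lines at 2-fold. Atf3 (-4.84 and -4.82) and Fos (-4.56 and -4.18) lie at the lower left, and Pclaf (2.14 and 0.15) lies far right at a short-term ratio near 0.

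Genes of lineage did not reach the call between the T127 clusters, although sums of some lists stood apart. None of the epithelial (5 tested in the long-term pools), basal (3), EMT (10), fibroblast (6), MHC class I (11), interferon-stimulated (19), homologous recombination (7), PARP and base excision repair (8) or drug efflux genes (4) was called in either experiment. The mammary lineage list, with 0 genes called, summed to 598 CPM in long-term Malign_0 and 906 CPM in Malign_1, and to 882 and 1220.4 CPM in the short-term pools, lower in every pool of Malign_0. In the short-term pools the epithelial sum was higher in Malign_0 (2248 against 1787 CPM) and the fibroblast sum lower (3101 against 4257 CPM), again without overlap. The short-term basal and EMT sums also stood apart, at 782 against 671 CPM and 30114 against 27022 CPM, while the long-term pools of these 4 lists overlapped. Compared inside each long-term pool, the epithelial and EMT sums were higher in Malign_0 in 8 of 8 pools, the basal sum in 7 and the fibroblast sum in 5. The interferon, homologous recombination, and PARP and base excision repair sums were higher in Malign_0 inside all 8 long-term and all 4 short-term pools. The MHC class I sum was higher inside 7 and 4 pools, and the drug efflux sum was lower inside all 8 and all 4. Krt8 was at 735 CPM (pools 625 to 836) in long-term Malign_0 and 480.2 CPM (pools 413 to 605) in Malign_1, apart in every pool but below 2-fold. Decorin was at 4305 and 4324 CPM in the long-term pools. In the short-term pools it was at 2466, 2667, 2669 and 2524 CPM in Malign_0 and 3215, 3723, 3819 and 3994 CPM in Malign_1, a log2 ratio of -0.51.

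The T22 clusters Malign_2 and Malign_3 lay in the same long-term pools, and were set beside Malign_0 to ask how the resistant and the sensitive tumor differ. The mesenchymal genes Twist1, Prrx1 and Vim were higher in Malign_0 than in both T22 clusters. The epithelial genes Krt7, Ehf and Spint2 were lower than in both, while Krt8, Krt18 and Cldn1 were higher than in Malign_2. The basal genes Krt5 and Acta2 were lower than in Malign_2. Of the genes just named all but Vim, Krt8 and Krt18 were filter-set. The fibroblast and matrix lists were mixed. Against Malign_2, 1638 genes (19.8%) were higher and 1457 (17.6%) lower in Malign_0, with 1080 higher at a pseudocount of 10 CPM and 2388 lower at a minimum of 1 CPM. Against Malign_3, 1662 (19.9%) were higher and 1493 (17.9%) lower, with 2313 lower at a minimum of 1 CPM.

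In the EMT list 10 of 11 genes tested were higher against Malign_2 and 10 of 10 against Malign_3, of which 6 and 6 were filter-set. Of the fibroblast genes 4 were higher and 6 lower of 12 against Malign_2, and 5 and 1 of 7 against Malign_3. Of the basement membrane and matrix genes 4 were higher and 8 lower of 16, and 8 and 3 of 14. Over all genes tested 19.8% were higher and 17.6% lower against Malign_2, and 19.9% and 17.9% against Malign_3. Some genes lay near the minimum, such as Col1a1 at 3.92 CPM in Malign_0 and 10.8 CPM in Malign_2, which was tested through Malign_2 alone. Twist1 was at 256 in the lowest pool, 296 at the median and 349 in the highest in Malign_0, while in Malign_2 it was at 2.42 CPM and in Malign_3 at 3.55 CPM. Prrx1, a homeobox gene of mesenchyme, was at 298 CPM (pools 234 to 342) against 2.81 and 2.28 CPM. The repressor of E-cadherin Zeb1 was at 41.5 against 1.11 and 0.697 CPM, and vimentin at 9947 against 1356 and 349 CPM. Snai2 was the exception in the EMT list against Malign_2. This factor, which is also a basal gene, was at 4.61 CPM in Malign_0 and 77.4 CPM in Malign_2.

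Hmga2, chosen by rank, was at 1015, 912, 1042, 937, 1173, 1142, 1247 and 1289 CPM in the 8 long-term pools of Malign_0. In Malign_2 its highest pool was at 26.6 CPM and in Malign_3 at 25.4 CPM, and the summed level was 104-fold higher (95% interval 91.8 to 118) than in Malign_2. Spp1 ranged from 8028 to 11289 CPM over the Malign_0 pools, with a summed level of 106 CPM in Malign_2 and 132 CPM in Malign_3, where the highest pools reached 492 and 623 CPM. In the short-term T22 pools, which hold no T127 tumor, Malign_2 and Malign_3 had 5.64 and 6.87 CPM of Spp1 and 0.0838 and 0.191 CPM of Hmga2, below their long-term levels. The source of the long-term excess in the T22 clusters was not tested.

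Several of the other genes with the highest ratios to the T22 clusters encode secreted or signalling proteins, and each of those named here was called against both. Notum, an enzyme that inactivates Wnt ligands, was at 300.1 CPM against 2.81 in Malign_2 and 2.98 in Malign_3. Dkk2 was at 170.5 against 0.893 and 1.71 CPM. Pcolce2, which promotes procollagen processing, was at 229.8 against 1.36 and 2.85 CPM. Klk8, a secreted serine protease, was at 1189 against 15.9 and 11.8 CPM. Rgs17, which damps G protein signalling, was at 276 CPM, and Prkg2, a kinase that responds to cyclic GMP, at 242 CPM, both below 3 CPM in the T22 clusters. Prl2c3, a member of the prolactin family, was at 342 against 6.08 and 0.760 CPM. It shares near-identical sequence with Prl2c2 (133 CPM in Malign_0), so the split of reads between this pair is uncertain.

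Of the epithelial genes tested 18 of 19 were lower against Malign_3, and 10 of 14 were lower and 3 higher against Malign_2. Malign_0 was below 10 CPM for 14 of the 19 and 9 of the 14, which were thus filter-set. The 3 higher ones against Malign_2 were Krt8, Krt18 and Cldn1, which are also among the markers given for Malign_0. Of these Cldn1, at 17.3 CPM in Malign_0 and 5.57 CPM in Malign_2, was filter-set through Malign_0. Against Malign_3 the keratins Krt8 and Krt18 were lower, Krt8 being at 735 CPM in Malign_0, 229 in Malign_2 and 1999.8 in Malign_3. Krt7, a keratin of glandular ducts, was at 1.12 CPM in Malign_0, 70.7 CPM in Malign_2 and 1337 CPM in Malign_3. Ehf, an epithelial ETS factor, was at 2.13, 564 and 1257 CPM, and Spint2, an inhibitor of epithelial serine proteases, at 1.25, 378 and 805 CPM. Of 13 claudin and tight junction genes tested 10 were lower against Malign_3 and 1 higher, while against Malign_2 3 of 8 were lower and 3 higher. Basal and myoepithelial genes were lower against Malign_2 in 10 of 11 cases, with 9 filter-set, and against Malign_3 2 of 6 were lower and 2 higher. Krt5, the keratin of basal cells, was at 1.29 against 916 CPM, and Acta2, smooth muscle actin, at 8.44 against 7275 CPM.

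Secreted products of the T22 cells were among the genes with the lowest ratios, Ecrg4 leading against Malign_2 and Wfdc18 against Malign_3. Wfdc18, a small secreted protein with a protease inhibitor fold, was at 18.6 in the lowest pool, 35.0 at the median and 81.3 in the highest in Malign_0, against 10772 CPM in Malign_2 and 34126 CPM in Malign_3. Ecrg4, a secreted peptide precursor, was at 13.0 against 11158 and 363 CPM, and the growth factor binding protein Igfbp5 at 7.86 against 4880.3 and 60.1 CPM. In short-term Malign_0, whose pools hold no T22 tumor, Wfdc18 was at 0.0638, Ecrg4 at 0.191, Igfbp5 at 0.0106 and Acta2 at 0.0744 CPM. The low long-term levels of these genes in Malign_0 were thus above their short-term levels, and the source of that RNA was not tested.

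**Figure D4:**
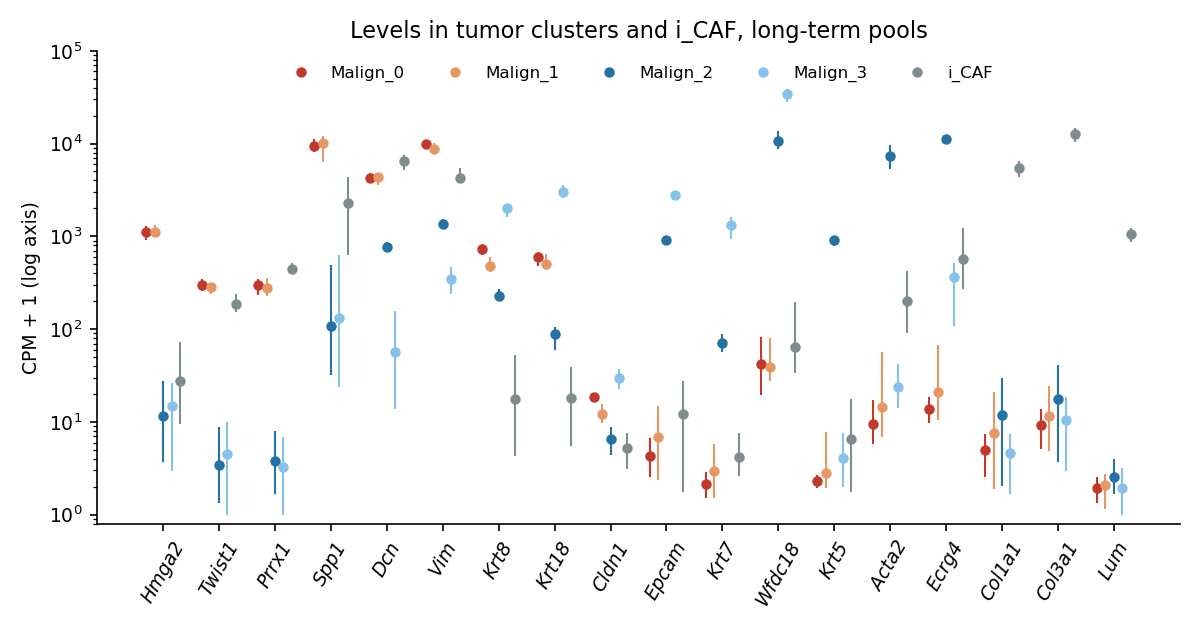
Level (CPM + 1, log axis) of 18 lineage and matrix genes in Malign_0, Malign_1, Malign_2, Malign_3 and i_CAF of the long-term pools. Points are levels summed over the pools and vertical lines run from the lowest to the highest pool. Malign_0 and Malign_1 coincide at most genes, lie high with i_CAF for Dcn, Vim, Twist1 and Prrx1, and lie low with the T22 clusters for Col1a1, Col3a1 and Lum.

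Receptor tyrosine kinases were split between higher and lower in Malign_0, and both P-glycoprotein genes were higher. Met, Axl, Fgfr1, Pdgfra, Igf1r and Epha2 were the 6 receptor tyrosine kinases higher against Malign_2 of 10 tested, and the same 6 of 11 were higher against Malign_3. Pdgfra, a receptor of platelet-derived growth factor, was at 155 CPM (pools 138 to 170) against 1.91 and 1.33 CPM. Axl, a receptor often found in mesenchymal tumor cells, was at 91.1 against 21.7 and 3.99 CPM. Egfr, Ddr1 and Ntrk2 were lower against both T22 clusters, among 4 kinases lower against Malign_2 and 5 against Malign_3. Of these kinases 3 were filter-set as higher and 3 as lower against Malign_2, and 4 and 4 against Malign_3. Over all genes tested 19.8% were higher and 17.6% lower against Malign_2, and 19.9% and 17.9% against Malign_3. Of the drug efflux pumps 4 of 4 tested were higher against Malign_2, and 3 of 5 were higher and 1, Abcc3, lower against Malign_3. The direction of all of these pumps was filter-set, so the counts show no more than that each reached 10 CPM in 1 group alone.

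Abcb1a and Abcb1b, the mouse genes for P-glycoprotein, a pump that exports many drugs including olaparib, were higher against both. Abcb1b was at 77.2, 84.7, 65.7, 85.9, 88.6, 80.5, 92.5 and 114 CPM in the 8 long-term pools of Malign_0, at 3.42 to 10.3 CPM in Malign_2 and at 0.867 to 5.09 CPM in Malign_3. Every Malign_0 pool lay above every T22 pool. Abcb1a was at 48.6 against 0.638 and 0.634 CPM. The short-term levels were 66.5 CPM of Abcb1b and 25.0 CPM of Abcb1a in Malign_0, and 5.95 and 0.191 CPM of Abcb1b in Malign_2 and Malign_3 of the T22 pools. Malign_1 had 91.8 CPM of Abcb1b in the long-term pools, so the level was shared by both T127 clusters. These 2 genes are close paralogs, and how reads common to both were counted is not known.

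The shares of DNA repair genes called are to be read against the 19.8% of all genes tested that were higher and the 17.6% that were lower against Malign_2, and the 19.9% and 17.9% against Malign_3. At these list sizes the counts do not set the repair genes apart from the other genes. Of 7 homologous recombination genes tested 1 was higher (Mad2l2, a subunit of shieldin) and 2 were lower (Rbbp8 and Nbn, which act in end resection) against Malign_2, and 1 was lower (Nbn) against Malign_3. Of the PARP and base excision repair genes 2 of 9 were higher and 2 lower against Malign_2, and 1 of 8 higher and 2 lower against Malign_3. Parp1, the main target of olaparib, was at 5.11, 5.57, 3.09, 4.03, 5.25, 6.46, 5.17 and 7.25 CPM in the 8 long-term pools of Malign_0. It was at 14.1 CPM (pools 10.7 to 17.7) in Malign_2 and 14.8 CPM (pools 10.6 to 22.2) in Malign_3. Parp1 passed the minimum of 10 CPM through the T22 clusters alone, so the direction of this difference was filter-set. Malign_1 had 3.97 CPM. Short-term Malign_0 stood at 16.3 CPM, within the long-term T22 ranges, and the T22 clusters of the separate short-term T22 pools at 22.5 and 24.0 CPM. Of the Trp53 list 2 of 11 genes, Mdm2 and Phlda3, were higher and 2, Trp53inp1 and Ei24, lower against Malign_2, and the same genes were called against Malign_3, again shares near those of all genes tested.

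Genes of MHC class I antigen presentation were lower in Malign_0. Of 15 MHC class I genes 11 were lower against Malign_2 and 9 of 15 against Malign_3, where 1 (Calr, an endoplasmic reticulum chaperone) was higher. Of these genes 4 and 4 were filter-set. Over all genes tested 17.6% were lower against Malign_2 and 17.9% against Malign_3. Their sums were 3992 CPM in Malign_0 (pools 3492 to 4810.2), 12722 CPM in Malign_2 and 6860.5 CPM in Malign_3. H2-K1, a classical class I heavy chain, was at 247 CPM (pools 183 to 343) against 2609.8 and 1382 CPM, and the peptide transporter Tap1 at 5.98 against 71.9 and 48.3 CPM. H2 genes are close in sequence to one another, so their single levels are uncertain. Cd47, which signals to macrophages not to engulf a cell, was higher against both, at 695 CPM (pools 651 to 741) against 86.3 and 159 CPM. Of the complement genes 5 of 6 and 4 of 5 were lower. As 5 and 4 of those tested were filter-set, these counts show little beyond that filter.

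Cytokine genes were called in both directions. Csf1, the growth factor of macrophages, was higher at 76.9 CPM (pools 69.6 to 88.1) against 34.0 and 13.4 CPM. Cxcl5, a neutrophil chemokine, was at 12.0 against 0.213 and 0.190 CPM. Tgfb1 and Tgfb3 were also higher against both T22 clusters, and Cxcl16 and Cx3cl1, chemokines made as membrane proteins, were lower. The alarmin Il33 was at 76.5 CPM in Malign_0, 58.0 in Malign_2 and 2.28 in Malign_3, and was called against Malign_3. In all 5 of 16 genes of this list were higher and 3 lower against Malign_2, and 7 and 5 of 18 against Malign_3, beside 19.8% and 17.6% of all genes tested against Malign_2 and 19.9% and 17.9% against Malign_3. The share lower against Malign_2 lay near that of all genes.

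Cell cycle genes are to be read against the 17.6% (Malign_2) and 17.9% (Malign_3) of all genes tested that were lower. By count the G2/M list against Malign_2 and the S phase list against Malign_3 lay above those shares, and the other pairings lay near them. Many of the genes tested were filter-set, so these counts are not read as an excess of lower genes. Of 45 G2/M genes 23 were lower and 0 higher against Malign_2, with 13 filter-set, and 6 of 39 lower and 3 higher against Malign_3. Of the S phase genes 5 of 26 and 10 of 28 were lower and 2 and 1 higher. Counting all S phase genes tested, called or not, 7 and 9 were filter-set as lower. Among the immediate early genes 9 of 15 and 10 of 15 were called lower and 0 higher, their sum being 5287 CPM for Malign_2 cells, 9627 CPM for Malign_3 cells and 3602 CPM for Malign_0 cells. Not all went this way against Malign_2, as Junb was higher in Malign_0 inside 8 of 8 pools and Ier2 inside 7.

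Malign_0 cells of the long-term and short-term experiments differed in many more lower than higher genes, while parts of the interferon and the glycolysis and hypoxia lists were higher. Of 8153 genes tested 200 (2.45%) were higher and 1543 (18.9%) lower in the long-term cells (115 and 539 with a pseudocount of 10 CPM), and the median gene had a log2 ratio of -0.36, so every ratio of this contrast is to be read against that shift. Duration of treatment, the co-transplanted tumors, the mice, the captures and the depth per cell all differ between the experiments and cannot be told apart. RNA of other cells also differed. The summed level of immune cell markers was 325 CPM (pools 257 to 439) in long-term and 35.1 CPM (pools 33.6 to 37.1) in short-term Malign_0, with 7 of 8 markers tested higher, the 8 all being filter-set. The part of this RNA in the results that follow was not tested.

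Interferon-stimulated genes were higher in 6 of 19 cases in the long-term cells. Isg15, a ubiquitin-like protein induced by interferon, was at 601, 546, 703, 719.5, 368, 484, 400 and 408 CPM in the 8 long-term pools and at 100.4, 141, 171 and 149 CPM in the 4 short-term pools. Every long-term pool lay above every short-term pool, with a log2 ratio of 1.89. Irf7, a transcription factor of the interferon response, was at 181 CPM (pools 104 to 311) against 58.9 CPM (pools 51.9 to 63.5), and the others were Ifit1, Ifit3, Ifi27l2a and the nucleic acid sensor Zbp1. Summed, the list was at 1857 CPM (pools 1163 to 2770.3) against 925 CPM (pools 776 to 1053). Immune cells carry these transcripts too, at a median of 23 UMIs of the list per Macro-M2 cell of the long-term pools against 4 per Malign_0 cell, both thinned to 5000 UMIs.

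Of 22 glycolysis and hypoxia genes 5 were higher and 0 lower in the long-term cells, among them Hk2, at 31.4 against 13.5 CPM, and Bnip3, a mitophagy receptor induced by low oxygen, at 104 against 48.4 CPM. Spp1 was at 9301 CPM (pools 8028 to 11289) against 3626 CPM (pools 3163 to 4194). Slurp1, a small secreted ligand of acetylcholine receptors, was at 429.6 CPM (pools 177 to 903) against 22.7 CPM (pools 16.3 to 28.8), and Prl2c3 at 342 against 30.2 CPM. Slurp1 was at 3.83 and 3.99 CPM in the long-term T22 clusters. The bone matrix gene Bglap, named after its value was seen, was at 104 CPM (pools 74.5 to 165) against 4.98 CPM (pools 4.51 to 5.88).

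Lower in the long-term cells were most receptor tyrosine kinases tested and about as many matrix and mitotic genes as not. Over all genes tested in this contrast 18.9% were lower and 2.45% higher. Of 9 receptor kinases 6 were lower, with Axl at 91.1 CPM (pools 85.2 to 100) against 258 CPM (pools 243 to 273) and Met at 85.5 against 190.1 CPM. Of the basement membrane and matrix genes 6 of 11 were lower and 1, Spp1, higher, and with Spp1 the list's sum was higher in the long-term cells, at 10536 against 5502 CPM. Col4a1, a chain of basement membrane collagen, was at 52.2 against 152 CPM, Hmga2 at 1105 against 2385 CPM and S100a4, a calcium binding protein of motile cells, at 4897 against 11334 CPM. Parp1 was at 5.27 against 16.3 CPM and passed the minimum of 10 CPM through the short-term cells alone, so its direction was filter-set. Of the G2/M genes 24 of 46 were lower, with 14 of the 46 filter-set and a median log2 ratio of -1.01, which was -0.63 among cells of 10000 to 40000 UMIs. For S phase genes that restriction turned the median from -0.41 to 0.10. It kept 91.1% of the long-term and 60.2% of the short-term Malign_0 cells, and whether depth or the choice of cells moved these medians was not tested. Immediate early genes summed to 3602 and 3610 CPM. Mitochondrial transcripts were at 13064 against 26571 CPM, and Malat1 at 38922 against 15684 CPM.

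Within Malign_0, most genes held their level from pool to pool. Of 4174 genes of at least 30 CPM in the long-term pools 107 (2.56%) differed by 2-fold or more between the highest and the lowest pool, and of 5070 in the short-term pools 38 (0.750%). The median ratio of highest to lowest pool was 1.29 and 1.13. Spp1 and Dcn stayed below 2-fold.

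Several genes split the long-term pools where the share of Malign_0 did. Slurp1 was at 677, 729, 903, 556, 213, 232, 186 and 177 CPM in pools 1 to 8, high in the first 4 and low in the last 4. Irf7 was at 311, 225, 274, 273, 108, 117, 108 and 104 CPM and Fos at 412, 425, 350.5, 476, 163, 146, 149 and 206 CPM, in the same order of pools. The interferon list summed to 2227, 2262, 2770.3, 2521, 1163, 1585, 1394 and 1397 CPM and the glycolysis and hypoxia list to 8826, 8343, 8611, 8969, 7349, 7325, 6596 and 6839.6 CPM. The opposite order was seen for mitochondrial transcripts, at 10453, 10179, 11322, 10097, 14079.5, 15306, 15279.7 and 15867 CPM, and for the hemoglobin gene Hba-a1, which red blood cells express, at 276, 249, 229.8, 265, 798, 743, 857 and 1008 CPM. Malign_1 cells of the same pools had 9136, 9134, 9771, 9048, 11948, 12432, 13286 and 12866 CPM of mitochondrial transcripts and 1176, 1629, 1687, 1881, 782, 1018, 934 and 1393 CPM of the interferon list, so both T127 clusters carried the mitochondrial split, while the interferon sums of Malign_1 overlapped between the same pools.

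**Figure D5:**
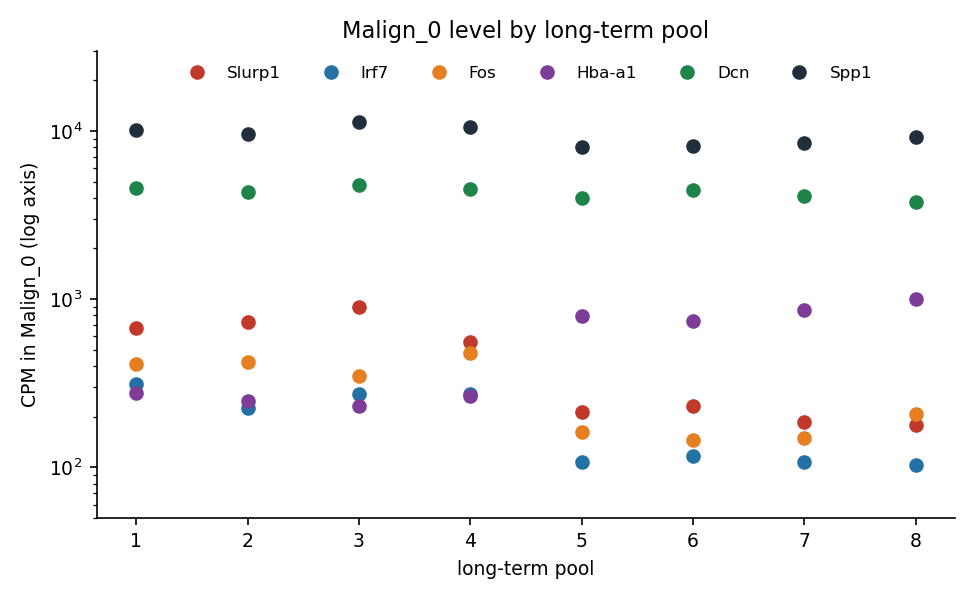
Level in Malign_0 (CPM, log axis) of 6 genes in each of the 8 long-term pools, 1 point per gene and pool. Slurp1, Irf7 and Fos are higher in pools 1 to 4 and Hba-a1 in pools 5 to 8, while Spp1 (8028 to 11289 CPM) and Dcn (3786 to 4799 CPM) differ by less than 2-fold between pools.

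From cell to cell, the genes with the largest variance relative to their mean after thinning to 5000 UMIs included Spp1, Dcn, Fth1 and Malat1 in both experiments. Over the 5337 genes ranked in the long-term pools the median ratio of variance to mean was 1.06. For Spp1 it was 97.6, with 94.3% of long-term cells positive, a mean of 52.5 UMIs and up to 662 UMIs in a cell. For Dcn it was 55.2, with a mean of 24.9 UMIs. Slpi, a secreted protease inhibitor, and S100a9, a neutrophil protein, varied in another way, because 29 cells (1% of the cluster) held 74.7% of the thinned Slpi UMIs and 79.4% of those of S100a9. Slpi was at 221 CPM in long-term and 5.32 CPM in short-term Malign_0. In the short-term pools the same held for Hbb-bs, a hemoglobin gene, with 99.5% of its UMIs in 26 cells. The authors removed doublets before deposit, and whether these few cells are remaining ones was not tested.

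Pairs of genes varied together among Malign_0 cells. These correlations are over the thinned cells of 1 cluster, which share libraries, and are given as descriptions of log-transformed UMIs. Spp1 and fibronectin (Fn1) had a Pearson r of 0.64 over 2809 long-term and 0.71 over 2515 short-term cells. That pair did not stand alone, since Fn1 also varied with the nuclear RNA Malat1 (0.56 and 0.67) and Spp1 with Fth1 (0.58 and 0.60). Isg15 and Ifit1 had 0.67 and 0.58, Fos and Egr1 0.47 in both, and the partner keratins Krt8 and Krt18 0.49 and 0.43. Decorin varied with Timp3, an inhibitor of matrix proteases (0.46 in both), and ran against Krt8 (-0.25 and -0.37). Between Dcn and Spp1 r was 0.07 and 0.21, and between Dcn and Fos -0.01 and 0.05.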

How the data were processed

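The data are droplet single-cell RNA-seq of dissociated mouse mammary tumors in 16 capture pools. Per the labels and the study's methods, the authors aligned reads with Cell Ranger 6.0.0 to GRCm38, counting intronic reads too, left out cells of low gene number or high mitochondrial share, removed doublets with Scrublet, clustered the cells and called tumor clusters from inferred copy number. The deposited tables hold whole-number UMI counts for 32285 genes per cell, not normalized, and a second set, of unit other, holds the cluster name of each cell. GEO's organism field names human although the gene symbols are those of mouse.

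From these counts, UMIs of each cluster were summed per pool and divided by the cluster's total in Python 3.11.15 (with pandas 2.3.3 for tables, scipy 1.17.1 for intervals and numpy 2.4.6 for sums). A long-term barcode of 16 bases found in several pools was kept as its deepest copy. Malign_0 was set against Malign_1, Malign_2, Malign_3 and i_CAF, and its long-term against its short-term cells, in 6 contrasts with the call rule given in the report. No file used ties cells to animals or treatments, so no test was run. Intervals are exact at 95% (Poisson, Clopper-Pearson or conditional binomial) and take in no more than counting error. Before a share of cells was computed, each cell was thinned to 5000 UMIs. Genes named are the 12 of at least 20 CPM with the highest and lowest ratios of each contrast with a tumor cluster, the most abundant and most variable ones, and members of 37 lists. The members and lists were chosen with earlier results of these data known. Antisense or overlapping genes cannot always be told apart, since how such reads were assigned is not given in the sources used here. Alternatives were the pseudocount, the minimum level, the mean over cells, cells of 10000 to 40000 UMIs, cells as deposited, other denominators, leaving out each pool and, added later, pairing the clusters by pool. The count step was tested on simulated data.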

Additional observations from a re-analysis of the deposited data

Results flagged for a closer look

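Of 258 values tested for 1 pool standing far from the rest, 16 did so. The cutoff would flag about 5% by chance, or 12.9 of them, if the values were spread normally. Values that rest on a few UMIs are not, so that number is a rough guide only. In long-term Malign_0 cells Ier2 was highest in pool 1 at 404 CPM and Notum in pool 3 at 395 CPM. Pool 8 stood apart for Igfbp2 at 2.56 CPM, Igfbp5 at 17.2 CPM, Cxcl17 at 1.28 CPM and S100a9 at 63.1 CPM. The first 3 of these were far higher in a T22 cluster than in Malign_0, and S100a9 is a gene of neutrophils.

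In short-term Malign_0 cells pool 3 stood highest for several epithelial and T22 transcripts at very low levels, with Epcam at 2.38 CPM, Krt7 at 0.607 CPM, Il17b at 0.563 CPM, Cldn3 at 0.130 CPM, Apoc1 at 0.0866 CPM and Krt5 at 0.0433 CPM. The same pool had the highest sum of PARP and base excision repair genes, at 441 CPM. Igfbp5 was highest in pool 1 at 0.0395 CPM, Slpi in pool 2 at 9.12 CPM, and Ecrg4 was lowest in pool 4 at 0.0890 CPM. Those values below 0.1 CPM rest on a few UMIs each.

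The summed level of proteases and their inhibitors moved in opposite directions in the experiments. Its log2 ratio of Malign_0 to Malign_1 was 0.0747 in the long-term and -0.213 in the short-term pools, a difference that was not tested.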

How the results depend on the processing

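Clusters of the same experiment share their pools, and a pairing by pool, chosen after seeing the data, took that in. With this replicate block, which asks for 2-fold on the summed levels and the same direction inside every pool, the genes higher and lower than in Malign_1 numbered 34 and 98 in the long-term and 5 and 137 in the short-term pools, those against Malign_2 1652 and 1479, against Malign_3 1686 and 1531 and against i_CAF 1202 and 1479, each within 1.5 times the number without it. Long-term and short-term cells share no pool and could not be paired. Genes below 10 CPM in both groups of a contrast were not called, and 3 UMIs in Malign_0 corresponded to 0.0494 CPM in the long-term and 0.0319 CPM in the short-term pools. The clusters were defined from the same genes, so the contrasts are descriptions.

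With a pseudocount of 10 CPM the genes higher in Malign_0 than in Malign_1 numbered 8 in the long-term and 0 in the short-term pools, those higher than in Malign_2 numbered 1080 and than in i_CAF 760, and the long-term against short-term contrast called 654 (115 higher and 539 lower). With a minimum of 1 CPM the genes higher than in Malign_1 numbered 38 and 10, those lower than in Malign_2 2388 and than in Malign_3 2313, and 321 were higher in long-term than in short-term cells. Among cells of 10000 to 40000 UMIs 14 genes were higher than in short-term Malign_1, the short-term share of Malign_0 was 47.7%, and Top2a turned from -1.08 to 0.14 (log2, long-term against short-term).

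Leaving out each pool in turn gave 19 to 40 genes higher and 88 to 96 lower than in Malign_1 in the long-term pools, the highest count of higher genes being without long-term pool 6, and 4 to 5 higher and 136 to 138 lower in the short-term pools. It gave totals of 3068 to 3117 called against Malign_2, 3141 to 3198 against Malign_3, 2596 to 2669 against i_CAF and 1626 to 1817 between long-term and short-term cells, and shares of Malign_0 of 59.3 to 63.2% in the long-term and 51.2 to 51.9% in the short-term pools. Without long-term pools 1, 2 and 3, which share barcodes, the long-term share was 67.4% and 1585 genes were called between long-term and short-term cells. Of 1010 log2 ratios of called genes, 475 moved beyond the spread of the pools with a pseudocount of 10 CPM, 41 among cells of 10000 to 40000 UMIs, besides Top2a, and 6 with the mean over cells.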

Other observations

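Genes of further groups differed between Malign_0 and the T22 clusters. The cell cycle brake genes Cdkn2b and Cdkn2c were higher in Malign_0 than in both, Cdkn2b at 176 CPM (pools 142 to 204) against 19.6 CPM in Malign_2 and 41.6 CPM in Malign_3. Cdkn2a was at 476 CPM against 237 and 309.5 CPM and was called against Malign_2. In the mammary list 3 of 7 genes were higher and 4 lower against Malign_2, beside 19.8% and 17.6% of all genes tested. Gata3, a factor of luminal cells, was at 56.4 CPM (pools 47.0 to 61.2) against 8.84 and 12.9 CPM, whereas Sox10, a factor of stem-like mammary cells, was at 0.494 against 82.2 and 42.4 CPM. In the Wnt and Notch list Wnt5a (103 against 0.893 and 3.10 CPM), Wnt10a, Notch2 and Dkk2 were higher than in both, and Sfrp1, a secreted Wnt antagonist, was lower at 2.49 against 1656 and 259 CPM.

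The oncofetal RNA-binding gene Igf2bp2 was at 67.6 CPM (pools 54.4 to 80.3) in Malign_0 against 0.808 and 0.760 CPM, while the imprinted RNA H19 was at 0.165 against 12.0 CPM in Malign_2. Of the EGF receptor ligands Ereg was at 131 CPM against 1.11 and 4.63 CPM and Tgfa at 17.3 against 1.19 and 4.50 CPM, both called against each T22 cluster. Ddit3, lower in Malign_0 than in Malign_1, was at 67.3 CPM against 20.5 and 29.4 CPM in the T22 clusters and so was higher than in both. Interferon-stimulated genes were higher in 7 of 19 cases and lower in 0 against Malign_2, beside 19.8% and 17.6% of all genes tested, and higher in 2 of 20 and lower in 0 against Malign_3, beside 19.9% and 17.9%. Lpar1, which encodes the LPA1 receptor, was at 21.4 CPM in Malign_0 and 168 CPM in i_CAF, and whether transgene reads were counted for it is not given in the sources used here.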
